A study of Juglans cathayensis with 6 samples.

Results

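The genes described here are annotated for moving glucose or acyl groups, and were taken as a module for glucosyl and acyl transfer to phenolic compounds in the husk of *Juglans cathayensis*, the Chinese walnut. A gene was a member when its main description held UDP-glycosyltransferase, UDP-glucosyltransferase, "UDP-glucose:", galloyl, gallate or serine carboxypeptidase-like, and did not hold flavonoid, flavonol, flavanone or anthocyanidin, words that removed 0 genes. The rule reads descriptions and no expression value, but it was written with earlier results of these data known. It gave 76 members among 39234 listed genes, and every one of the 76 descriptions came from *Juglans regia*, the common walnut. The members fell into 4 role groups: 34 UDP-glycosyltransferases with a family number, 3 other UDP-sugar transferases, 20 serine carboxypeptidase-like genes numbered 1 to 19, and 19 serine carboxypeptidase-like genes with another number or none. Genes are named by assembly identifier, given here without its TRINITY_ prefix.

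UDP-glycosyltransferases, abbreviated UGT below, carry sugar from a UDP-sugar onto small molecules such as phenolic acids, flavonoids and hormones, and the first digits of a name give its family. A glucose ester formed in this way can serve as an activated acyl donor, and serine carboxypeptidase-like acyltransferases pass the acyl group of such an ester to an alcohol or to another glucose ester. In *Arabidopsis thaliana* the low-numbered serine carboxypeptidase-like (SCPL) proteins include sinapoyl transferases of this kind, while many higher-numbered ones are known only as relatives of peptidases. In oaks and related trees, an ester of gallic acid and glucose made by a UGT of family 84 starts the route to hydrolysable tannins, phenolics that walnut husk is known to hold. Sugar conjugation generally makes a phenolic more soluble and lets it be stored in the vacuole, away from the oxidases that darken cut tissue.

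RNA was sequenced from 3 libraries of a variety labelled brown when freshly cut and 3 libraries of a variety labelled white, all from untreated husk with a time label of 35 days, whose starting event the labels do not give. The comparison addresses enzymatic browning, in which oxidases turn phenolics into dark pigments once tissue is cut. Each colour comes from a different variety, so colour and variety cannot be told apart. The labels do not name separate trees behind the libraries of a group, so a p-value here sets the difference against the spread of these libraries alone, and that spread may be technical.

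Values are TPM, a length-normalized share of each library's RNA in which the read depth is not kept. The depth is therefore unknown, and no counting interval can be given. Genes at 1 TPM or more numbered 34826 to 35240 in the brown libraries and 28349 to 33949 in the white ones, with white replicate 2 lowest. White replicate 2 was the lowest of the 6 libraries for 42.1% of members and for 43.5% of all listed genes. The deposited table lists only genes that reach 2.01 TPM in some library. Chlorophyll a-b binding protein and Rubisco small subunit genes, taken as markers of green husk, summed to 3414 to 6908 TPM in brown libraries and 4952 to 6243 TPM in white libraries. Seed storage terms matched 4 listed genes, summing to 22.2 to 37.7 TPM in brown libraries and 38.9 to 54.8 TPM in white libraries, while legumin, vicilin, 2S albumin and 11S globulin matched none. The 5 secondary wall cellulose synthase genes summed to 16.7 to 18.7 TPM in brown libraries and 12.9 to 19.8 TPM in white libraries. Their part in the results below was not tested.

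The name of the module did not hold for every member. No listed gene had gallate or galloyl in any description, so the gallate step of tannin formation has no member by name. The UDP-glucose:glycoprotein glucosyltransferase (DN15208_c0_g8), an enzyme of protein quality control in the endoplasmic reticulum, acts on glycoproteins and not on phenolics. The TURAN member (DN11922_c0_g1), named for an *Arabidopsis* gene needed for pollen tube growth, carried the KEGG description of a beta-1,4-mannosyltransferase. A UGT domain (Pfam UDPGT) was recorded for 33 members and a serine carboxypeptidase domain (Pfam Peptidase_S10) for all 39 SCPL members, which left 4 members with another domain or none. Of the 20 SCPL members numbered 1 to 19, 18 carried the KEGG description serine carboxypeptidase-like 19, the sinapoyl transferase name. Of the 19 other SCPL members, 12 carried that of a hydroxymandelonitrile lyase, a cyanogenic-glucoside enzyme. Another 3 carried the serine carboxypeptidase-like 19 description and 1 the serine carboxypeptidase-like 8 description, so these names were not confined to the low-numbered group.

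Members were mostly expressed at modest levels, and a few UGT and high-numbered SCPL genes held much of the signal. The 6 most abundant members held 49.4% of the members' TPM, and 43 members averaged under 5 TPM. Summed over all 76 members, the level was 1336, 1509 and 1455 TPM in brown replicates 1, 2 and 3, against 1192, 987 and 1114 TPM in white replicates 1, 2 and 3. Every brown sum lay above every white sum, and the means were 1433 ± 88.5 TPM in brown husk and 1098 ± 103 TPM in white husk (SD, n = 3 each), a ratio of 1.31. In bulk tissue, fewer cells of a type and less RNA per cell cannot be told apart.

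**Figure D1:**
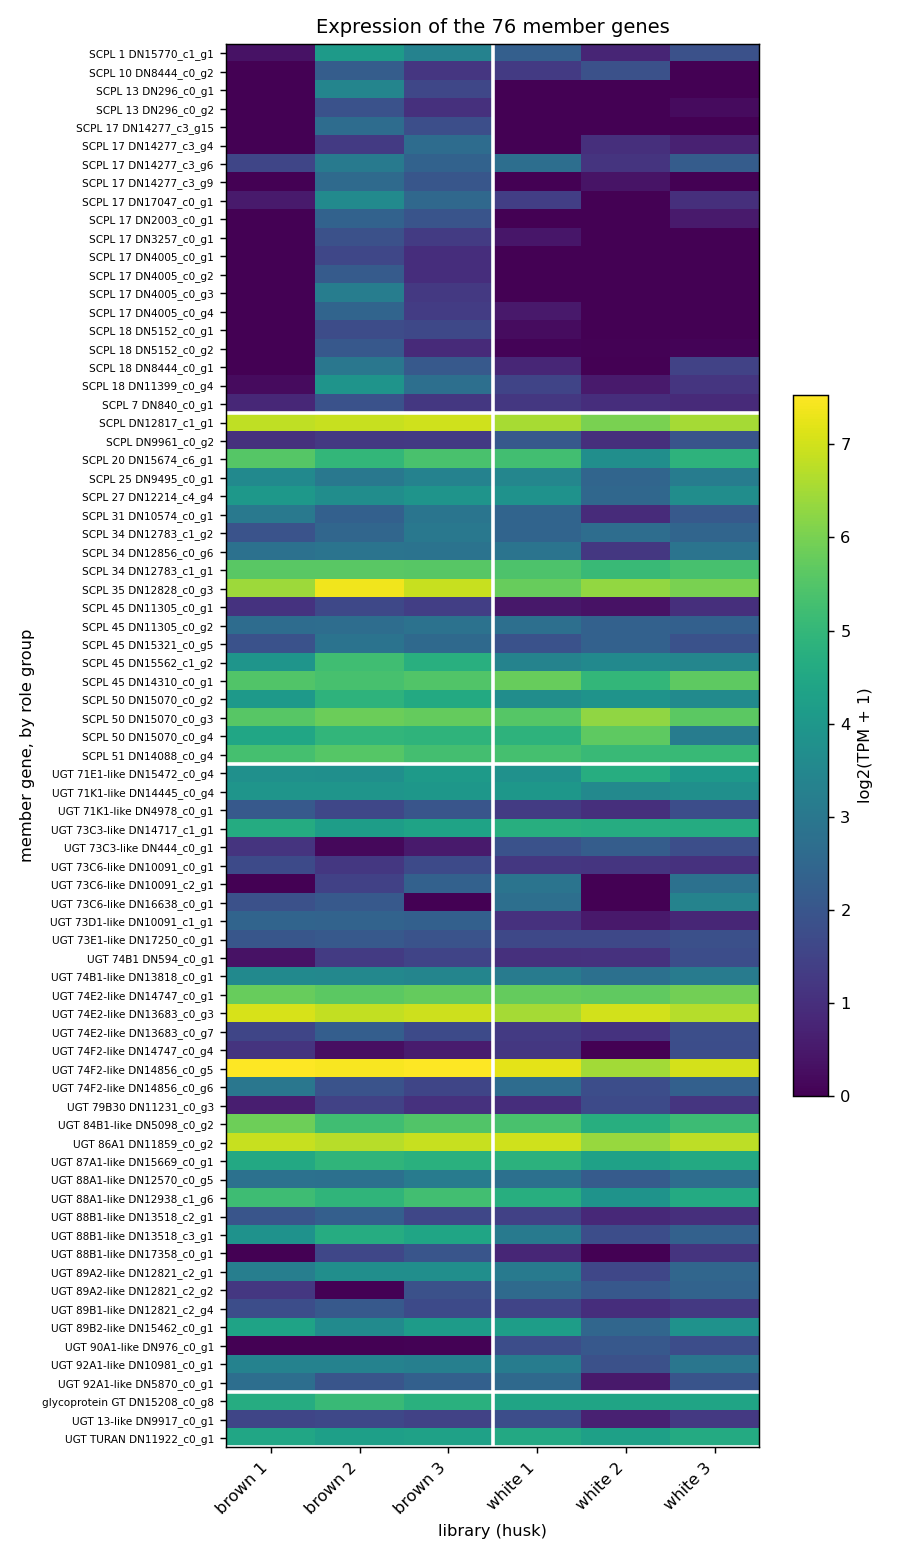
Level of each of the 76 members (rows, grouped by role with white lines between groups) in the 3 brown and 3 white libraries (columns), as log2(TPM + 1) by colour. The SCPL genes numbered 1 to 19 at the top are dark in brown replicate 1 and lighter in brown replicates 2 and 3, while the brightest rows are UGT74F2-like, UGT74E2-like, UGT86A1, SCPL 35 and an unnumbered SCPL gene.

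Brown was compared with white by limma on log2(TPM + 1) for the 37829 genes that reached 1 TPM in 3 or more libraries, with Benjamini-Hochberg adjustment over all of them. The threshold was an adjusted p under 0.05. A log2 fold change is given as brown minus white and understates the change of low genes. Of the 76 members, 64 passed the filter on low values, and the 12 that did not were all SCPL genes numbered 1 to 19. Among the 64, 2 were higher and 1 was lower in brown husk. Over all tested genes, 3.83% were higher and 2.17% lower in brown husk, against 3.12% and 1.56% of the tested members, so the members' shares were near the background. At an unadjusted p under 0.05, limma gave 12 members higher and 3 lower, against 21.5% of all tested genes in either direction. With quantile normalization 2 members were higher and 2 lower, against 3.33% and 3.37% of all tested genes.

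A shift of the members toward brown was visible without calls, and the transcriptome as a whole shifted the same way. The median log2 fold change was 0.37 over the 64 tested members and 0.19 over all tested genes. The change was positive for 73.4% of tested members and 64.3% of all tested genes. Among UGT members with a family number the positive share was 64.7%, near that of all genes, with a median of 0.34. All 8 tested SCPL members numbered 1 to 19 were positive, each with overlapping groups, and 78.9% of the other SCPL members were. The excess of positive signs thus lay mainly among SCPL genes. With TMM scaling factors the medians were 0.23 for members and 0.02 for all genes, and with quantile normalization 0.15 and -0.01, so the members' median stayed above that of all genes under both scalings. With the TPM of each assembly cluster summed, the medians were 0.17 for clusters holding a member and 0.17 for all clusters, and the excess was gone. Such sums can also hold unrelated genes that are not members, so this median does not describe the members alone. The TMM and quantile scalings also moved the split of calls over all genes, from the 1450 higher and 819 lower as deposited to 1322 higher and 1225 lower with TMM and 1259 higher and 1275 lower with quantile normalization. Every brown library lay above every white library for 17 tested members, 26.6%, against 20.2% of all tested genes. Every brown library lay below every white library for 3 tested members, 4.69%, against 8.85% of all tested genes.

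**Figure D2:**
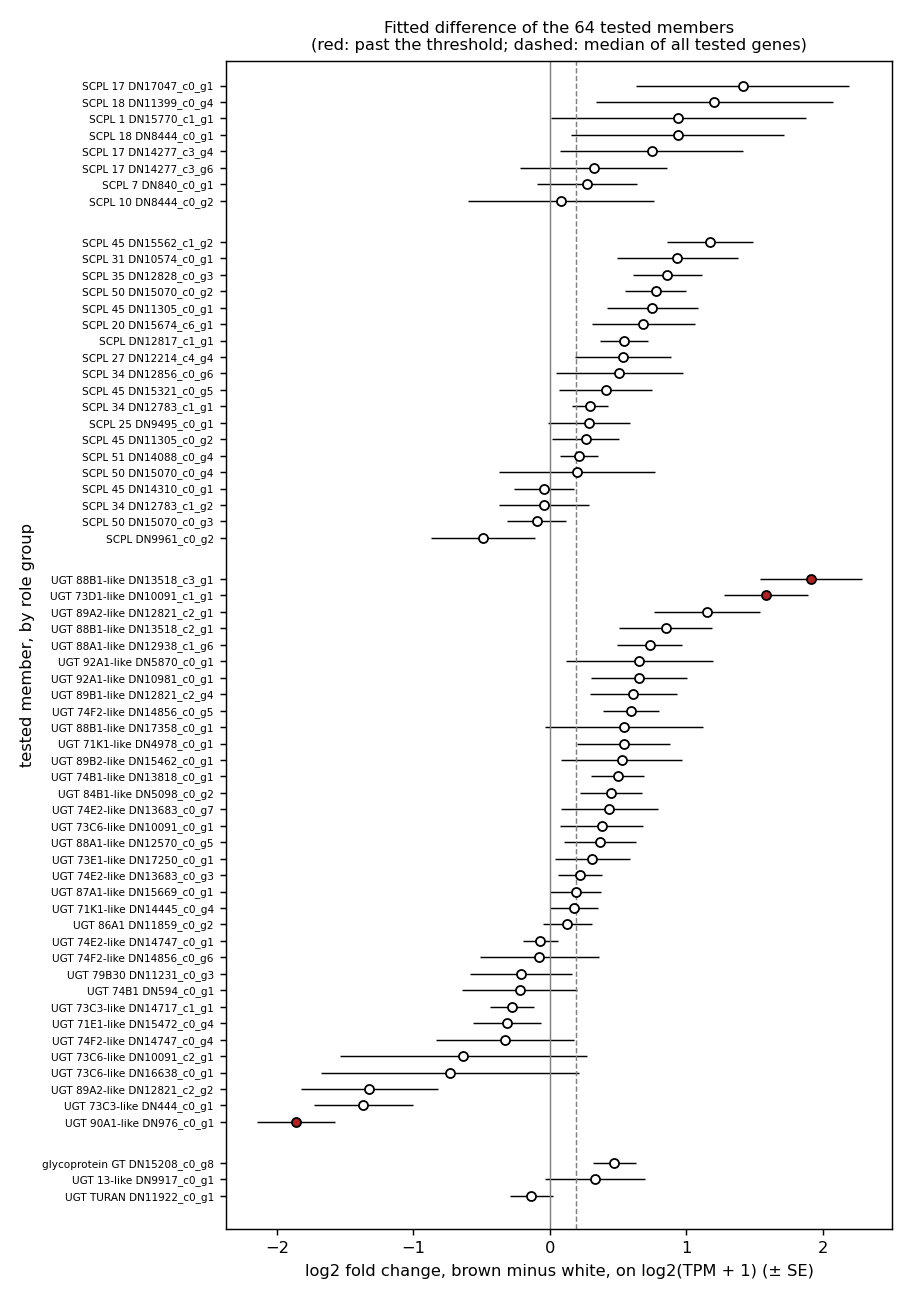
Fitted log2 fold change on log2(TPM + 1), as brown minus white, of the 64 tested members by role group (points; bars are standard errors). Red points mark the 3 members past the threshold, and the dashed line marks the median of all tested genes at 0.19, with 47 members to the right of 0 and 17 to the left.

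The 3 members past the threshold were all UGT genes of low to moderate level, from 3 different families. UGT73D1-like and UGT88B1-like were higher and UGT90A1-like was lower in brown husk. No role is given here for the 3 named proteins beyond their membership of the UGT superfamily.

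UGT73D1-like (DN10091_c1_g1, 1691 bases) stood at 4.39, 4.25 and 3.99 TPM in brown replicates 1, 2 and 3, against 1.10, 0.43 and 0.75 TPM in white replicates 1, 2 and 3. The brown libraries were close together and all lay above the white ones, with means of 4.21 ± 0.20 TPM in brown husk and 0.76 ± 0.34 TPM in white husk (SD, n = 3 each), a ratio of 5.54. White replicates 2 and 3 were under 1 TPM, so the gene passed the filter on low values through its brown libraries. Its log2 fold change was 1.58 ± 0.30 (SE), with an adjusted p of 0.0278 by limma with Benjamini-Hochberg adjustment. The fitted change depends on the pseudocount and was 2.40 with a pseudocount of 0.1 TPM in place of 1. The limma call was lost without brown replicate 1, 2 or 3 (adjusted p = 0.0817, 0.101 and 0.106) and without white replicate 3 (adjusted p = 0.0942).

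UGT88B1-like (DN13518_c3_g1) is an assembled fragment of 270 bases. It stood at 13.26, 24.51 and 20.54 TPM in brown replicates 1, 2 and 3, against 7.55, 2.41 and 4.05 TPM in white replicates 1, 2 and 3. The groups did not overlap, although the libraries within each spread widely, and the means were 19.4 ± 5.71 TPM in brown husk and 4.67 ± 2.63 TPM in white husk (SD, n = 3 each), a ratio of 4.16. Its log2 fold change was 1.91 ± 0.38 (SE), with an adjusted p of 0.0301 by limma with Benjamini-Hochberg adjustment. The limma call was lost without brown replicate 2 or 3 (adjusted p = 0.121 and 0.119) and without white replicate 2 or 3 (adjusted p = 0.0518 and 0.0947), and also without the mean-variance trend (adjusted p = 0.0514). A longer gene with the same description (DN13518_c2_g1, 1560 bases) stood at 3.0, 3.83 and 2.03 TPM in brown libraries, against 1.75, 0.81 and 1.02 TPM in white libraries. The groups did not overlap there either, but its log2 fold change of 0.85 did not pass (limma adjusted p = 0.209). Another gene of that description (DN17358_c0_g1, 1007 bases) stood at 0, 2.02 and 3.0 TPM in brown libraries, against 0.75, 0.01 and 1.21 TPM in white libraries. Its groups overlapped (limma adjusted p = 0.636). Reads shared by near-identical copies may be split between such genes, so the level of each is uncertain.

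UGT90A1-like (DN976_c0_g1, 1674 bases) was listed at 0, 0 and 0.03 TPM in brown replicates 1, 2 and 3, against 2.44, 3.22 and 2.41 TPM in white replicates 1, 2 and 3. All white libraries held the transcript at a low level and the brown libraries were at or near 0. It passed the filter on low values only through the white libraries, so a gene with this profile could be tested only by being higher there. Its fitted log2 fold change was -1.86 ± 0.29 (SE), with an adjusted p of 0.0132 by limma with Benjamini-Hochberg adjustment. With values this low, the fitted change depends on the pseudocount and was -4.66 with a pseudocount of 0.1 TPM in place of 1. The limma call was lost without brown replicate 2 or 3 (adjusted p = 0.0561 and 0.0661) and without white replicate 3 (adjusted p = 0.0567).

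**Figure D3:**
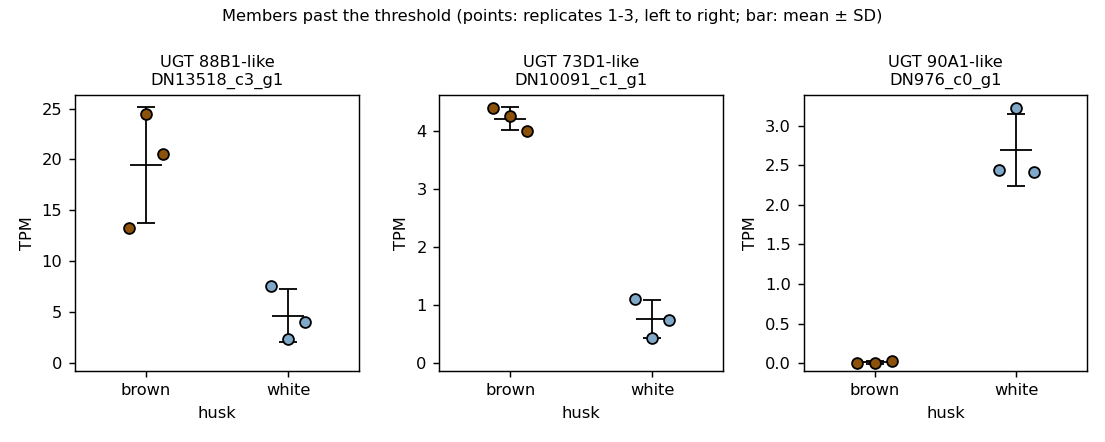
TPM of the 3 members past the threshold in brown and white husk (points are replicates 1 to 3 from left to right in each group; horizontal bars are means and error bars SD). UGT88B1-like and UGT73D1-like have all brown points above all white points, and UGT90A1-like has its brown points at or near 0 and its white points between 2.41 and 3.22 TPM.

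The most abundant UGT members did not pass the threshold. UGT74F2-like (DN14856_c0_g5) had the highest mean of all members and stood at 182.64, 176.05 and 183.94 TPM in brown libraries, against 147.19, 87.91 and 131.71 TPM in white libraries. In *Arabidopsis* the enzyme of that name joins glucose to salicylic acid, forming its glucose ester. Every brown library lay above every white one, with the brown libraries closer together, but the log2 fold change of 0.59 did not pass (limma adjusted p = 0.147). UGT74E2-like (DN13683_c0_g3) stood at 133.91, 114.12 and 123.28 TPM in brown libraries, against 90.42, 127.85 and 102.98 TPM in white libraries, and the groups overlapped (log2 fold change 0.22, limma adjusted p = 0.490). The *Arabidopsis* enzyme of that name glucosylates the auxin indole-3-butyric acid, but this 4035-base gene carries the Swiss-Prot description of an uncharacterized membrane protein, so its identity is uncertain. UGT86A1 (DN11859_c0_g2) stood at 119.40, 103.89 and 119.20 TPM in brown libraries, against 126.53, 82.01 and 108.89 TPM in white libraries. The groups overlapped, and its log2 fold change was 0.13 (limma adjusted p = 0.728) and -0.083 with TMM factors.

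Families 88 and 92 were the UGT families with more than 1 member in which every fitted value lay above 0. Over all tested genes 64.3% of fitted values were positive, so nothing is read from these signs in families this small. The UGT88B1-like genes of family 88 may share reads, so their values may not be independent. The 5 genes of family 88 summed to 57.9, 65.9 and 70.1 TPM in brown libraries, against 41.3, 20.4 and 34.8 TPM in white libraries, and all 5 fitted values stayed positive with TMM factors and with quantile normalization. The most abundant of them, UGT88A1-like (DN12938_c1_g6), stood at 35.69, 29.70 and 36.75 TPM in brown libraries, against 25.42, 13.67 and 23.07 TPM in white libraries. Its groups did not overlap, yet its log2 fold change of 0.73 did not pass (limma adjusted p = 0.133). Family 73 was mixed, with 3 fitted values above 0 and 4 below among 7 genes, as was family 74, with 4 above and 4 below among 8 genes. Family 74 held the largest share of UGT signal, with 391.8, 357.7 and 376.2 TPM in brown libraries against 307.4, 277.02 and 313.6 TPM in white libraries, the larger part of it from 3 genes. The UGT84 member, UGT84B1-like (DN5098_c0_g2), belongs to the family that in other trees makes the glucose ester of gallic acid, although the *Arabidopsis* enzyme of that name acts on an auxin. It stood at 57.23, 36.61 and 44.27 TPM in brown libraries, against 40.39, 25.32 and 34.97 TPM in white libraries, with overlapping groups (log2 fold change 0.45, limma adjusted p = 0.312).

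Some UGT genes of 1 assembly cluster differed in sign. UGT89A2-like (DN12821_c2_g1) stood at 8.24, 12.21 and 12.08 TPM in brown libraries, against 7.49, 2.06 and 4.63 TPM in white libraries, and its log2 fold change of 1.15 did not pass (limma adjusted p = 0.142). A second UGT89A2-like gene of that cluster (DN12821_c2_g2) stood at 1.33, 0 and 2.66 TPM in brown libraries, against 5.04, 3.23 and 4.22 TPM in white libraries, with a log2 fold change of -1.32 (limma adjusted p = 0.183). Neither pair of groups overlapped, and the genes lay in opposite directions. In *Arabidopsis* the enzyme of that name glycosylates dihydroxybenzoic acids. UGT73C3-like (DN444_c0_g1) was the other member below its white libraries throughout, at 1.20, 0.11 and 0.45 TPM in brown libraries against 2.69, 3.65 and 2.54 TPM in white libraries (log2 fold change -1.37, limma adjusted p = 0.0766).

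The 3 UDP-sugar transferases without a family number gave no call. The glycoprotein glucosyltransferase (DN15208_c0_g8) stood at 24.53, 33.44 and 26.73 TPM in brown libraries, against 19.91, 19.91 and 19.98 TPM in white libraries, which were nearly equal and all below the brown ones (log2 fold change 0.47, limma adjusted p = 0.139). TURAN (DN11922_c0_g1) stood at 20.90, 17.87 and 18.90 TPM in brown libraries, against 22.14, 18.33 and 23.40 TPM in white libraries (log2 fold change -0.14, limma adjusted p = 0.664). UGT13-like (DN9917_c0_g1) stood at 1.97, 2.13 and 1.79 TPM in brown libraries, against 2.40, 0.61 and 1.38 TPM in white libraries (log2 fold change 0.33, limma adjusted p = 0.647). The groups overlapped for TURAN and UGT13-like.

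Of the 19 SCPL members outside the 1 to 19 range, 0 passed the threshold by limma, and at an unadjusted p under 0.05 there were 4, all higher in brown husk, a share of 19 near the 21.5% of all tested genes. Of their fitted values, 15 of 19 were positive, 78.9% against 64.3% of all tested genes, and with TMM factors 14 were. As a sum they stood at 522, 645 and 601 TPM in brown libraries, against 465, 430 and 427 TPM in white libraries, without overlap. SCPL 35 (DN12828_c0_g3) stood at 84.95, 162.76 and 117.96 TPM in brown libraries, against 53.66, 77.81 and 64.23 TPM in white libraries. Every brown value lay above every white one, and its log2 fold change of 0.86 did not pass (limma adjusted p = 0.102). The unnumbered SCPL gene DN12817_c1_g1 stood at 110.84, 118.39 and 126.61 TPM in brown libraries, against 93.00, 63.64 and 90.29 TPM in white libraries, again without overlap (log2 fold change 0.54, limma adjusted p = 0.130). The roles of these proteins in husk are not given by their descriptions.

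SCPL 45 (DN15562_c1_g2) came nearest to the threshold among the SCPL members, at 14.24, 36.45 and 26.11 TPM in brown libraries against 9.38, 10.81 and 9.96 TPM in white libraries. The white libraries were close together and the brown ones spread widely above them. Its log2 fold change was 1.18 (limma adjusted p = 0.0779), and without brown replicate 1, its lowest brown library, the adjusted p by limma was 0.0216. Without any other library the adjusted p by limma was 0.124 to 0.223, and with TMM factors it was 0.160. A more abundant SCPL 45 gene (DN14310_c0_g1) stood at 43.98, 39.86 and 43.84 TPM in brown libraries, against 54.38, 30.99 and 49.91 TPM in white libraries. Its groups overlapped (log2 fold change -0.043, limma adjusted p = 0.931). An SCPL 50 gene (DN15070_c0_g2) stood at 15.74, 28.04 and 22.97 TPM in brown libraries, against 11.95, 13.68 and 11.28 TPM in white libraries (log2 fold change 0.77, limma adjusted p = 0.0999). Its more abundant neighbour in the assembly (DN15070_c0_g3), also SCPL 50, stood at 46.62, 56.16 and 52.78 TPM in brown libraries, against 45.32, 77.49 and 48.40 TPM in white libraries. That gene had overlapping groups and a log2 fold change of -0.10 (limma adjusted p = 0.831).

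The SCPL members numbered 1 to 19, whose *Arabidopsis* namesakes include acyltransferases that use glucose esters, differed more among the brown libraries than between the varieties. This pattern was chosen for description after its values were seen. Their sum was 3.63, 116.6 and 55.9 TPM in brown replicates 1, 2 and 3, against 17.6, 7.45 and 12.6 TPM in white replicates 1, 2 and 3. Brown replicate 1 was thus the lowest of the 6 libraries and brown replicate 2 the highest, and the means were 58.7 ± 56.5 TPM in brown husk and 12.5 ± 5.07 TPM in white husk (SD, n = 3 each). Of the 20 genes, 15 were listed at 0 in brown replicate 1 and above 0 in brown replicates 2 and 3, a pattern that 3.17% of all listed genes showed. The order brown replicate 2 above 3 above 1 held for 19 of the 20, against 20.6% of all listed genes. Both shares cover listed genes of every level, while 19 of these 20 averaged under 5 TPM, so they are not a like comparison. A low gene is listed only where some library reaches 2.01 TPM. Brown replicate 2 was the highest library for 19 of the 20, so the listing partly fixes this order. All 20 reached 1 TPM in brown replicate 2 and 17 did so in brown replicate 3, against 1 in brown replicate 1. In the white libraries 4 to 6 did so. The selection described in the next paragraph holds down this white count and the white mean, so no difference between the varieties is read from them.

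Of the 8 SCPL members numbered 1 to 19 that were tested, 0 passed the threshold by limma, with 0 at an unadjusted p under 0.05, and brown and white libraries overlapped for all 8. SCPL 1 (DN15770_c1_g1) had the highest mean of the group, with 0.28, 16.06 and 9.02 TPM in brown libraries against 3.88, 0.72 and 2.68 TPM in white libraries (log2 fold change 0.94, limma adjusted p = 0.608). SCPL 18 (DN11399_c0_g4) stood at 0.17, 13.76 and 5.75 TPM in brown libraries, against 1.91, 0.46 and 1.25 TPM in white libraries (log2 fold change 1.20, limma adjusted p = 0.474). SCPL 17 (DN14277_c3_g6) stood at 1.95, 7.58 and 4.14 TPM in brown libraries, against 5.65, 1.19 and 3.59 TPM in white libraries (log2 fold change 0.32, limma adjusted p = 0.774). For each of the 3, brown replicate 2 was highest and brown replicate 1 lay within or below the white range. The 12 untested genes were under 1 TPM in every white library, of which 5 were at 0 in all 3. The selection largely fixes this: they are listed only through brown libraries, and where brown replicates 2 and 3 both reach 1 TPM, a single white library at 1 TPM would have put the gene among the tested. Nothing is read from their low white values.

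Many of these 20 genes are fragments: their median length was 443.5 bases, and 13 were under 600 bases. The 4 genes of at least 1400 bases, near the length of a full coding region, showed the same order, with 1.68, 43.75 and 20.95 TPM in brown replicates 1, 2 and 3, against 8.76, 2.20 and 5.85 TPM in white replicates 1, 2 and 3. The 20 genes came from 11 assembly clusters, so some may be parts of 1 gene and are not independent of each other. The green husk sum ran the other way among the brown libraries, at 6908, 3414 and 5904 TPM in brown replicates 1, 2 and 3. The seed storage sum was 22.2, 31.5 and 37.7 TPM in those libraries. Of its 4 genes, 1 basic 7S globulin-like gene (DN16800_c0_g1) was lowest in brown replicate 1 and highest in brown replicate 2, at 1.67, 19.07 and 13.75 TPM, while the 2 oleosin genes and the other 7S globulin gene did not show that order. The part of either marker list in the SCPL values was not tested.

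**Figure D4:**
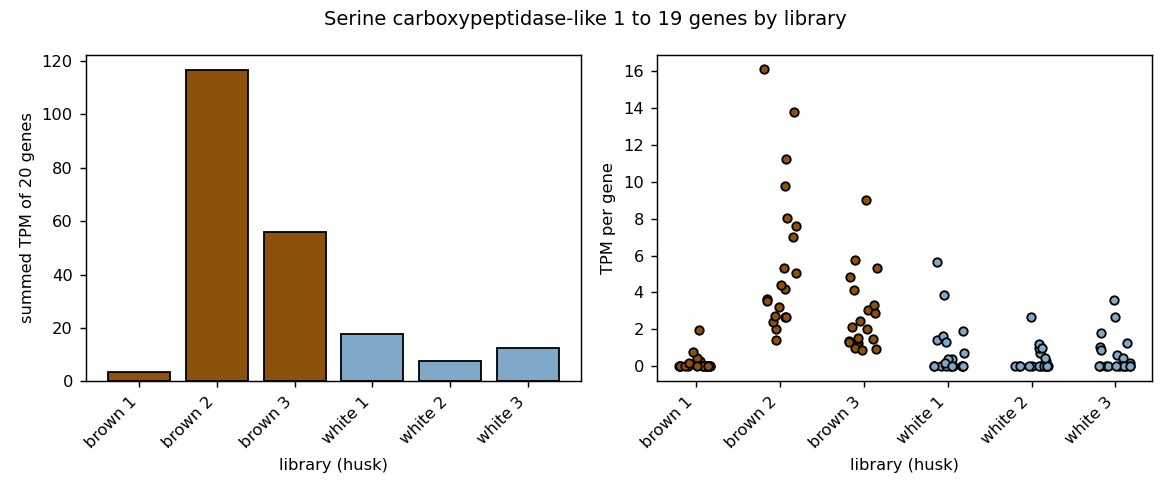
Summed TPM of the 20 SCPL members numbered 1 to 19 in each library (left, bars) and TPM of each of the 20 genes in each library (right, points with horizontal jitter). The sum is 3.63, 116.6 and 55.9 TPM in brown replicates 1, 2 and 3 and 7.45 to 17.6 TPM in the white libraries.

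Genes that supply, share or reverse the reactions of the members were listed by description, none of them a member. Gallic acid can arise from the shikimate pathway through dehydroquinate dehydratase/shikimate dehydrogenase, for which 5 genes were listed and 3 tested. None passed by limma, none had an unadjusted p under 0.05, and their median log2 fold change was 0.16, against 0.19 over all tested genes. The most abundant (DN14463_c0_g2) stood at 53.91, 51.33 and 49.34 TPM in brown libraries, against 65.26, 57.12 and 68.88 TPM in white libraries, without overlap (log2 fold change -0.30, limma adjusted p = 0.237). The 2 untested genes, described after their values were seen, stood at 0.51, 4.70 and 2.40 TPM (DN13100_c2_g4) and 0.75, 5.95 and 3.01 TPM (DN17185_c0_g1) in brown replicates 1, 2 and 3. Their low white values, under 1 TPM throughout, follow from their being untested while listed through brown libraries, and nothing is read from them.

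Of 21 tested genes that make UDP-sugars, the donors of every UGT reaction, 3 were higher and 2 lower in brown husk, 14.3% and 9.52% against 3.83% and 2.17% of all tested genes, with a median log2 fold change of 0.21. UDP-sugar pyrophosphorylase-like (DN13780_c0_g3), which makes UDP-sugars from sugar phosphates, stood at 35.20, 37.10 and 35.42 TPM in brown libraries, against 20.31, 12.29 and 20.37 TPM in white libraries (log2 fold change 1.02, limma adjusted p = 0.0346). UDP-glucose 6-dehydrogenase 1-like (DN15236_c1_g1), which turns UDP-glucose into UDP-glucuronic acid for cell wall sugars, stood at 49.24, 55.81 and 58.48 TPM in brown libraries, against 33.39, 21.15 and 32.52 TPM in white libraries (log2 fold change 0.91, limma adjusted p = 0.0406). The chloroplastic UTP-glucose-1-phosphate uridylyltransferase 3 (DN15687_c0_g5), which in *Arabidopsis* supplies UDP-glucose for sulfolipid synthesis, stood at 15.19, 13.90 and 14.10 TPM in brown libraries, against 6.50, 6.09 and 9.08 TPM in white libraries (log2 fold change 0.92, limma adjusted p = 0.0407). All 3 were without overlap. The 2 lower genes were both described as sucrose synthase 7-like and passed the filter only through the white libraries. Both came from 1 assembly cluster, so they may be parts of 1 gene. Other sucrose synthase 7-like genes of that cluster had no call. No call of this list was left without brown replicate 1, 2 or 3 or without white replicate 3.

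Flavonoid and anthocyanidin glycosyltransferases use UDP-sugars like the members, but the member rule does not match their descriptions. Of 17 tested, 0 were higher and 1 was lower in brown husk by limma, 0% and 5.88% against 3.83% and 2.17% of all tested genes. At an unadjusted p under 0.05, limma gave 2 higher and 2 lower, against 21.5% of all tested genes in either direction. The 1 lower gene (DN15393_c2_g7) was an anthocyanidin 3-O-glucosyltransferase 5-like gene, named for an enzyme of anthocyanin pigment formation. It stood at 3.63, 3.33 and 3.73 TPM in brown libraries, against 18.95, 20.42 and 20.02 TPM in white libraries. Its groups did not overlap (log2 fold change -2.19, limma adjusted p = 0.00120). The list's median log2 fold change was -0.15, against 0.37 over the members, a difference that was not tested.

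Beta-glucosidases remove the glucose that a UGT adds and so free the phenolic part of a glucoside. Of 25 tested genes, 4 were higher and 0 lower in brown husk by limma, against 5 higher and 3 lower at an unadjusted p under 0.05, and the list's median log2 fold change was 0.02. Over all tested genes 3.83% were higher and 2.17% lower, and 21.5% had an unadjusted p under 0.05. The beta-glucosidase 44-like gene (DN11834_c0_g4) stood at 13.63, 24.11 and 18.31 TPM in brown libraries, against 4.94, 1.45 and 5.01 TPM in white libraries (log2 fold change 2.11, limma adjusted p = 0.0256). Of 3 genes with the Swiss-Prot name of a bacterial beta-glucosidase, BoGH3B, 2 were higher as well. The main description of all 3 is an uncharacterized protein, so action on phenolic glucosides is not shown by their names. The more abundant of the 2 higher genes (DN15483_c0_g1) stood at 127.08, 144.38 and 130.53 TPM in brown libraries, against 66.19, 34.80 and 63.26 TPM in white libraries (log2 fold change 1.33, limma adjusted p = 0.0246). The other that rose (DN14086_c1_g5) stood at 34.97, 25.06 and 28.10 TPM in brown libraries, against 0.97, 0.60 and 0.96 TPM in white libraries (log2 fold change 4.04, limma adjusted p = 0.000308). In these 3 called genes every brown library lay above every white one, although DN14086_c1_g5 passed the filter only through the brown libraries. The BoGH3B gene without a call (DN13584_c0_g1) stood at 20.77, 22.66 and 22.58 TPM in brown libraries, against 22.98, 20.58 and 21.73 TPM in white libraries, with overlapping groups (limma adjusted p = 0.962). The count of higher genes was 1 without brown replicate 1, 2 or 3 and without white replicate 3, and 1 gene was lower with quantile normalization.

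The beta-glucosidase 12-like gene (DN13406_c0_g3), chosen after its values were seen, had the highest mean of the cleavage list and the same order among the brown libraries as the low-numbered SCPL genes. It stood at 60.82, 2173 and 1065 TPM in brown replicates 1, 2 and 3, against 0.74, 1811 and 555 TPM in white replicates 1, 2 and 3. White replicate 2 was thus high for this gene, while it was the lowest white library for the SCPL sum.

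BAHD acyltransferases are a second family that acylates phenolics and alcohols, using coenzyme A thioesters in place of the glucose esters used by SCPL acyltransferases. Of 24 tested genes, 7 were lower in brown husk, 29.2% against 2.17% of all tested genes, and 1 was higher. Of the 7, 4 were under 1 TPM in every brown library and passed the filter only through the white ones, and 2 of these 4 came from 1 assembly cluster. The 1 higher gene passed only through the brown libraries, so these counts are given as a description. Their median log2 fold change was -0.64, against 0.37 over the members and 0.19 over all tested genes. Benzyl alcohol O-benzoyltransferase-like (DN15900_c0_g1), which makes benzoate esters, stood at 4.68, 9.47 and 11.73 TPM in brown libraries, against 42.19, 22.81 and 33.35 TPM in white libraries (log2 fold change -1.85, limma adjusted p = 0.0253). Another gene of that description (DN12215_c3_g13) lay the other way without overlap. It stood at 36.11, 15.02 and 32.71 TPM in brown libraries, against 11.40, 4.77 and 8.23 TPM in white libraries. Its log2 fold change of 1.64 did not pass (limma adjusted p = 0.0567). Vinorine synthase-like (DN15341_c4_g3), named for an acetyltransferase of alkaloid synthesis in *Rauvolfia*, stood at 5.81, 7.13 and 5.93 TPM in brown libraries, against 16.27, 13.70 and 14.74 TPM in white libraries (log2 fold change -1.13, limma adjusted p = 0.0154).

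Phenolic glucoside malonyltransferase 1-like (DN17195_c0_g1), whose *Arabidopsis* namesake adds malonate to the glucose of phenolic glucosides, stood at 3.21, 3.28 and 3.21 TPM in brown libraries, against 8.86, 7.0 and 8.98 TPM in white libraries (log2 fold change -1.13, limma adjusted p = 0.0323). For these 3 genes called lower every brown library lay below every white one. The 1 BAHD gene called higher was omega-hydroxypalmitate O-feruloyl transferase-like (DN10655_c0_g1), which in *Arabidopsis* adds ferulate during suberin formation. It stood at 10.75, 7.80 and 7.91 TPM in brown libraries and was listed at 0 in all 3 white libraries. The count of 7 lower genes was the same with TMM factors, with quantile normalization and without white replicate 2. It was 2 without brown replicate 1, brown replicate 2 or white replicate 1, 1 without white replicate 3 and 0 without brown replicate 3.

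**Figure D5:**
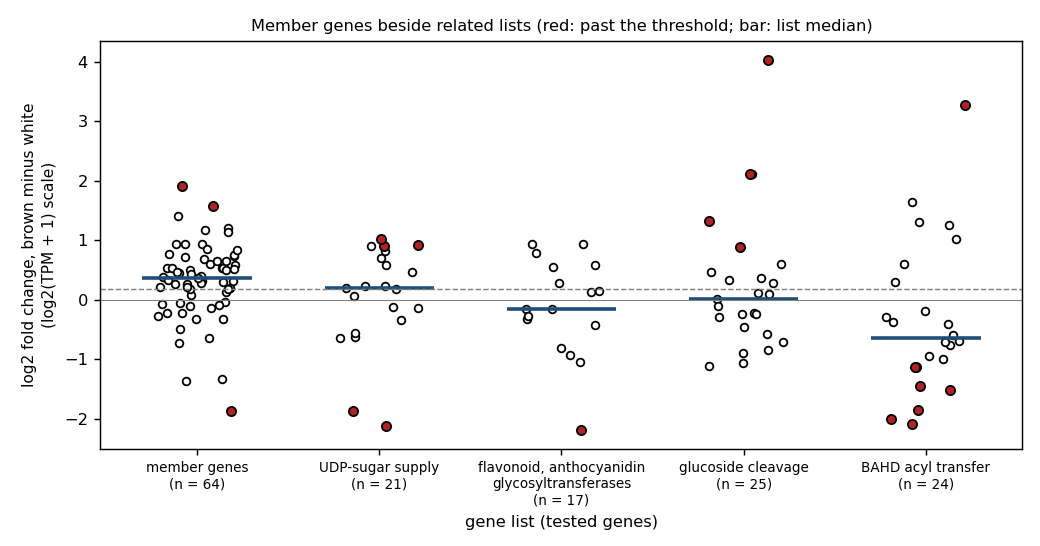
Fitted log2 fold change on log2(TPM + 1), as brown minus white, of each tested member and of each tested gene in 4 related lists (points with horizontal jitter; red marks genes past the threshold, thick bars list medians, the dashed line the median of all tested genes at 0.19). The members centre at 0.37 with 3 red points, and the BAHD list centres at -0.64 with 7 red points below 0 and 1 above.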

How the data were processed

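Husk RNA was sequenced in 3 brown and 3 white libraries of *Juglans cathayensis*, grouped by the colour in their labels. Per the submitters' processing notes, cutadapt and FastQC were used on the reads, and transcripts were assembled with Trinity, as the deposited identifiers show. The authors deposited TPM for each assembled gene and library, with lengths and descriptions. The sources used here do not give the quantifier or the annotation versions, no genome was used, and library depth is unknown.

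From the TPM, log2(TPM + 1) was tested by limma 3.58.1 (R 4.3.3) with a mean-variance trend, brown minus white, without covariates, on the 37829 genes that reached 1 TPM in 3 or more of 6 libraries. Adjustment was by Benjamini-Hochberg over those genes, with a threshold of 0.05. The fit was also run on simulated data with independent noise in each library, in which changes were added only to genes of higher level. That run does not show how the fit behaves for genes near 0 or where libraries share deviations.

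The members, role groups and related lists were chosen with earlier results of these data known. Named members are those past the threshold, the 3 most abundant of each role group, and the 5 largest rises and 5 largest falls among members with non-overlapping groups and at least 5 TPM in the higher group. They also include members at 0 in 1 group and at 1 TPM or more throughout the other, of which there were none, and up to 3 called genes per related list. Other genes are named where a count of 5 or fewer, a family or a gene of the same description is described, and were chosen after their values were seen. A step that named the genes most like the leading gallate member was void, since none is listed. No sequences are printed, because none were used here.

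Alternatives were TMM factors and quantile normalization, pseudocounts of 0.1 and 0.5, filters of 5 TPM or none, array weights, a fit without the trend, the replicate number as a block, summed assembly clusters, members matched by Swiss-Prot too, and each library left out.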

Additional observations from a re-analysis of the deposited data

How the results depend on the processing

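As deposited, 2 members were higher and 1 was lower in brown husk. The counts were 1 and 0 with a filter of 5 TPM (32 members tested), 2 and 2 with quantile normalization, and 1 and 1 without the trend. With each library left out in turn, the higher count ranged from 0 to 2 and the lower count from 0 to 1. Both were 0 without brown replicate 2, brown replicate 3 or white replicate 3, fits in which 550, 410 and 495 genes of all were higher. Without white replicate 2, 1 was higher and 1 lower. The cause was not tested. Matching Swiss-Prot descriptions too gave 3 higher and 1 lower. The median member log2 fold change lay between 0.15 and 0.50 under every alternative, and with clusters summed it was 0.17, as over all clusters.

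Same-numbered brown and white libraries had deviations correlated at 0.057, 0.056 and 0.011, so the numbers were not taken to pair the libraries, although each brown library correlated best with its own number. With the replicate block, 1 member was higher (SCPL 35, limma adjusted p = 0.0430) and 0 were lower, and the calls of UGT73D1-like, UGT88B1-like and UGT90A1-like were lost (limma adjusted p = 0.0744, 0.0808 and 0.0517). Of the BAHD genes 2 were higher and 1 lower. The BAHD counts, added after the data were seen, were 2 higher with quantile normalization. With libraries left out they ranged from 1 to 2 higher and from 0 to 7 lower.

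Of the 18 named members, those that changed sign were uncalled both ways. With clusters summed, which join unrelated genes, the log2 fold changes were -0.13 (DN11399_c0_g4), -0.42 (DN14277_c3_g6), -0.26 (DN15770_c1_g1), -0.34 (DN12817_c1_g1) and 0.10 (DN15070_c0_g3). With libraries left out, DN14277_c3_g6 ranged from -0.12 (without white replicate 2) to 0.71 and was -0.06 without brown replicate 2. DN15070_c0_g3 ranged from -0.24 to 0.14 (without white replicate 2) and was 0.0069 with array weights. DN11859_c0_g2 ranged from -0.043 (without white replicate 2) to 0.27 and was -0.083 with TMM factors. TPM keeps no depth, so the precision of genes near 0 cannot be stated.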
